A study of Mus musculus with 6 samples.

Results

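The genes described here encode adenylyl cyclases, the enzymes that make the second messenger cyclic AMP from ATP. They are Adcy1, Adcy2, Adcy3, Adcy5, Adcy6, Adcy7, Adcy8 and Adcy9, taken as every probe set that the array's annotation assigns to one of these 8 symbols alone. That gave 20 probe sets of 45037 on the array, and 17 of the 20, with at least 1 for each gene, were bright enough to be tested. The RNA came from the cerebral cortex of S100a10 bacTRAP mice of the line ES691, in which the control region of S100a10 drives a tagged ribosomal protein so that the ribosomes of those cells, with the messenger RNA on them, can be purified (translating ribosome affinity purification, TRAP). All mice carried this transgene on a background crossed for 3 to 5 generations from FVB onto C57BL/6, and all drank 1% saccharine. The fluoxetine group also received 0.167 mg/ml fluoxetine, a serotonin reuptake inhibitor, and the vehicle group received saccharine alone, both over 15 to 18 days. There were 3 arrays in each group, each called a biological replicate. The sources used here give no age, sex or number of animals behind an array, and the p-values measure only the spread between these samples.

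The membrane-bound adenylyl cyclases share a catalytic core and are switched on by the stimulatory G protein alpha subunit. They differ in their other inputs. The products of Adcy1, Adcy3 and Adcy8 respond to calcium and calmodulin, those of Adcy2 and Adcy7 can be boosted by G protein beta-gamma subunits, those of Adcy5 and Adcy6 are inhibited by calcium and by inhibitory G protein alpha subunits, and that of Adcy9 is the most distant relative. In cortical neurons the calcium-stimulated enzymes are known for linking synaptic activity to cyclic AMP, and Adcy5 is best known as the main cyclase of the striatum.

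The arrays had median intensities of 47.3 to 48.6, and log2 values correlated at 0.993 to 0.997 between arrays over all probe sets. S100a10, the driver gene, lay between 14.98 and 15.22 in log2 on all arrays, and the excitatory neuron marker Slc17a7 between 8.95 and 10.30. Markers of other cells were measured too: all 7 listed interneuron genes, 8 of 8 astrocyte genes, 5 of 6 microglial genes and 4 of 5 annotated oligodendrocyte genes passed the filter, and the submitters state that the line labels some non-neuronal cells. So did 3 of 5 endothelial genes and all 5 pericyte and smooth muscle genes. The filter was a mean of 5.64 in log2 over the arrays. The astrocyte gene Gfap passed it through fluoxetine 1 and fluoxetine 3 (12.13 and 9.02), against 4.70 to 5.67 with vehicle. The endothelial gene Flt1 lay near it, at 5.46 to 6.10. The endothelial genes Pecam1 and Tek, the microglial gene Aif1 and the oligodendrocyte gene Mog were below the filter. The level of an isoform is therefore that of the whole purified RNA, in which fewer cells of a type and less RNA per cell cannot be told apart. No array is set aside below, but fluoxetine 1 and fluoxetine 2 often lay at the edge for these genes, and values without them are given where they matter.

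None of the 17 tested adenylyl cyclase probe sets reached an adjusted p under 0.05 in limma (Benjamini-Hochberg), and neither did any of the 22326 probe sets tested (0%). The adjusted p was 0.999 for each of the 17. At an unadjusted p under 0.05 there were 2 of the 17, Adcy8 and the dimmer probe set of Adcy1, both lower with fluoxetine, where 1.78% of all tested probe sets were lower at that level and 2.52% reached it in either direction. That count was 1 without vehicle 1 (Adcy8 no longer), 3 without fluoxetine 2 or without fluoxetine 3, and 0 without fluoxetine 1 and vehicle 2 together. The same 2 were the ones whose groups did not overlap, against 5.23% of all tested probe sets lower without overlap and 8.05% in either direction. Differences below 0 were found for 10 of the 17 probe sets, or 58.8%, against 66.3% of all tested probe sets. The median difference was −0.06 in log2 for the 17 and −0.06 for all tested probe sets, so the family as a whole sat at the middle of the array. After quantile normalization 8 of the 17 and 50.2% of all probe sets were lower, and after a shift to a common median 9 of the 17 and 49.2%.

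**Figure D1:**
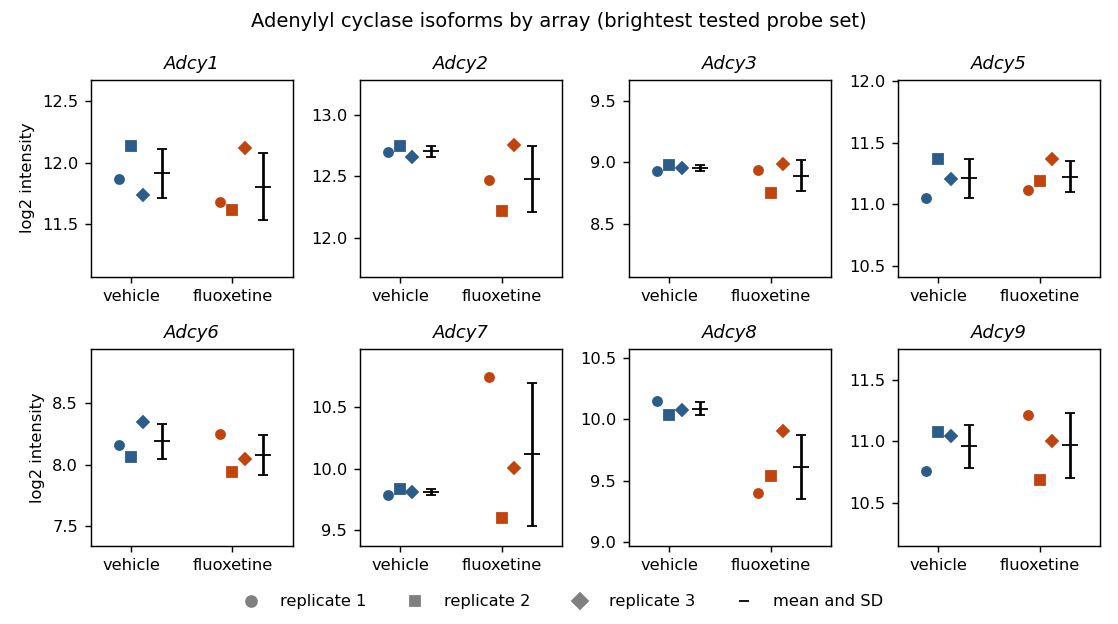
Log2 intensity of the brightest tested probe set of each of the 8 adenylyl cyclase genes on the 3 vehicle arrays (blue) and the 3 fluoxetine arrays (red), marker shape giving the replicate number and black bars the mean and SD. Each panel spans 1.6 log2 units around its own centre; the groups overlap in every panel except that of Adcy8.

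Adcy8, a calcium-stimulated cyclase, differed most among the brightest probe sets. With fluoxetine it measured 9.40, 9.54 and 9.90, and with vehicle 10.14, 10.04 and 10.08 (log2 intensity). On the linear scale these were intensities of 675, 743 and 957 with fluoxetine and 1132, 1050 and 1080 with vehicle. The vehicle arrays lay close together and the fluoxetine arrays lay below all of them, spread over 0.50 in log2, with fluoxetine 3 nearest to the vehicle range. The means were 9.61 ± 0.26 and 10.09 ± 0.05 (SD, n = 3 each), a difference of −0.47 ± 0.15 (log2, SE), or a fold of 0.720, with a 95% interval of −0.83 to −0.12. In limma the unadjusted p was 0.0162, the 134th smallest of 22326, and the adjusted p 0.999. An exact permutation test, two-sided, gave p = 0.1, and with 3 arrays in each group no smaller p is possible. The difference stayed between −0.62 and −0.37 when each array was left out in turn, and was −0.40 after quantile normalization and −0.39 without fluoxetine 1 and vehicle 2 together. Adcy8 has a single probe set on the array, so no second measurement of it was made. The averaged log2 level of 5 layer 5 neuron markers also lay lower on the fluoxetine arrays (12.56, 12.75 and 12.72) than on the vehicle arrays (12.76, 12.79 and 12.76) without overlap. The summed intensity of these markers did overlap (80771 to 92168 against 87156 to 92939), and their median difference was −0.05, no lower than the −0.06 of all tested probe sets. All 5 pericyte and smooth muscle markers were lower with fluoxetine, by a median of −0.41, where 66.3% of all tested probe sets were lower. Their summed intensity was lowest on fluoxetine 1, at 6889 to 9205 over the fluoxetine arrays and 8568 to 13485 over the vehicle arrays. All 5 markers were highest on vehicle 3, whereas Adcy8 was highest on vehicle 1. Of these, Vtn differed by −0.41 ± 0.15 (SE) without overlap, as did the interneuron peptide gene Vip by −0.39 ± 0.10. Of the 7 interneuron genes, however, 4 were lower and 3 higher, with a median of −0.09. The astrocyte gene Sox9 went the other way, higher with fluoxetine by 0.58 ± 0.11 without overlap. Of the 8 astrocyte genes 5 were higher and 3 lower, with a median of 0.15. Neither Vtn, Vip nor Sox9 passed limma's test. All 4 tested oligodendrocyte genes (median −0.18) and all 5 tested nuclear and non-coding transcripts (−0.23) were lower with fluoxetine. All 5 tested microglial genes were higher (0.18). The part of any of these cells in the Adcy8 difference was not tested.

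Adcy1, the other calcium-stimulated cyclase well known in cortex, had 2 probe sets that disagreed in the size of the difference. The brighter one measured 11.68, 11.62 and 12.12 with fluoxetine and 11.87, 12.13 and 11.74 with vehicle in log2. Fluoxetine 3 and vehicle 2 were high and the groups overlapped, with a difference of −0.11 ± 0.18 (SE, 95% interval −0.53 to 0.30). It ran from −0.27 without fluoxetine 3 to −0.0016 without vehicle 2, and was 0.06 without fluoxetine 1 and vehicle 2 together and −0.35 averaged over both probe sets. The dimmer one measured 6.03, 5.63 and 6.34 with fluoxetine and 6.50, 6.62 and 6.67 with vehicle. Here the groups did not overlap, at means of 6.00 ± 0.35 and 6.60 ± 0.09 (SD, n = 3 each). The difference was −0.60 ± 0.19 (log2, SE), a fold of 0.662, with an unadjusted limma p of 0.0144, the 109th smallest, and an adjusted p of 0.999. Intensities of this probe set ran from 49.6 to 102, near the minimum of 50, with fluoxetine 2 lowest. It differed by −0.76 to −0.41 when each array was left out. The 2 probe sets correlated at 0.599 over the 6 arrays, which describes 6 points and no more.

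Adcy3, the remaining member of the calcium-responsive group and best known from olfactory neurons, had 4 tested probe sets, all with small differences below 0. Its brightest probe set measured 8.94, 8.75 and 8.99 with fluoxetine and 8.93, 8.98 and 8.95 with vehicle. Only fluoxetine 2 lay apart, and the difference was −0.06 ± 0.11 (log2, SE), the smallest standard error among the 17. Its 95% interval was −0.33 to 0.20. The other probe sets differed by −0.16, −0.11 and −0.10. The probe set at −0.11 did not follow the others over the arrays (correlations of −0.360 to −0.137, against 0.805 to 0.938 among the other 3), and like the one at −0.10 it was dim, at mean intensities of 53.9 and 54.1.

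Adcy2, one of the cyclases boosted by beta-gamma subunits, measured 12.47, 12.22 and 12.75 with fluoxetine and 12.70, 12.75 and 12.66 with vehicle in log2, with intensities of 4758 to 6909. Fluoxetine 1 and 2 lay below every vehicle array, and fluoxetine 3 lay level with the highest of them. The difference was −0.22 ± 0.15 (SE, 95% interval −0.59 to 0.14). It depended on the fluoxetine arrays, at −0.09 without fluoxetine 2 and −0.36 without fluoxetine 3.

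Adcy7, its relative in the same group and known for its level in blood and immune cells, was set apart by 1 array. The brighter tested probe set measured 10.75, 9.60 and 10.01 with fluoxetine and 9.79, 9.84 and 9.81 with vehicle. The dimmer one measured 6.93, 5.66 and 5.70 with fluoxetine and 5.55, 5.97 and 5.82 with vehicle. Both were highest on fluoxetine 1, by 0.94 and 1.19 above the mean of the other 5 arrays, while the vehicle arrays of the brighter one had an SD of 0.02. The differences were 0.31 ± 0.27 and 0.32 ± 0.34 (log2, SE), with 95% intervals of −0.33 to 0.94 and −0.48 to 1.12, the widest of the family. Without fluoxetine 1 they were −0.0080 and −0.098, and without fluoxetine 2 0.57 and 0.54. Another probe set of Adcy7 lay below the filter at a mean intensity of 7.03. The name of the brighter tested one ends in _s_at, a kind that can match several genes, so its level may not be that of Adcy7 alone.

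Markers of other cells moved on the same array. The summed intensity of 5 annotated striatal neuron markers was 4828 on fluoxetine 1, 1795 and 2236 on the other fluoxetine arrays and 1568 to 1900 on the vehicle arrays. Of the 4 tested members of this list 3 were highest on fluoxetine 1, where 24.1% of all tested probe sets were highest. Penk, the enkephalin precursor, read 11.50 there and 9.23 to 9.86 on the other arrays, and Drd2 was below the filter. The summed intensity of 8 astrocyte markers was 49789 on fluoxetine 1, 36818 and 43151 on the other fluoxetine arrays and 39000 to 43507 on the vehicle arrays, with 5 of 8 highest on fluoxetine 1. Gfap varied most, at 12.13 in log2 on fluoxetine 1, 4.49 and 9.02 on the other fluoxetine arrays and 4.70 to 5.67 with vehicle. It weighs most in the averaged log2 level of this list, and Gja1, Slc1a2 and Slc1a3 were not highest on fluoxetine 1. Microglial markers did not single out this array: their sum was 1799 on fluoxetine 1, within 1582 to 2264 over the fluoxetine arrays and beside 1433 to 1896 over the vehicle arrays, and 4 of 5 tested members were highest on fluoxetine 3. Other lists also had their highest sum on fluoxetine 1. Oligodendrocyte precursor markers summed to 2048 there and 1377 to 1711 elsewhere, and interneuron markers to 26435 and 19315 to 24913. For oligodendrocyte markers the sum was 21809, close to the 21566 of vehicle 2. The sums of layer 5 neuron markers (80771) and of pericyte and smooth muscle markers (6889) were lowest there. The part of these cells in the Adcy7 values was not tested.

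**Figure D2:**
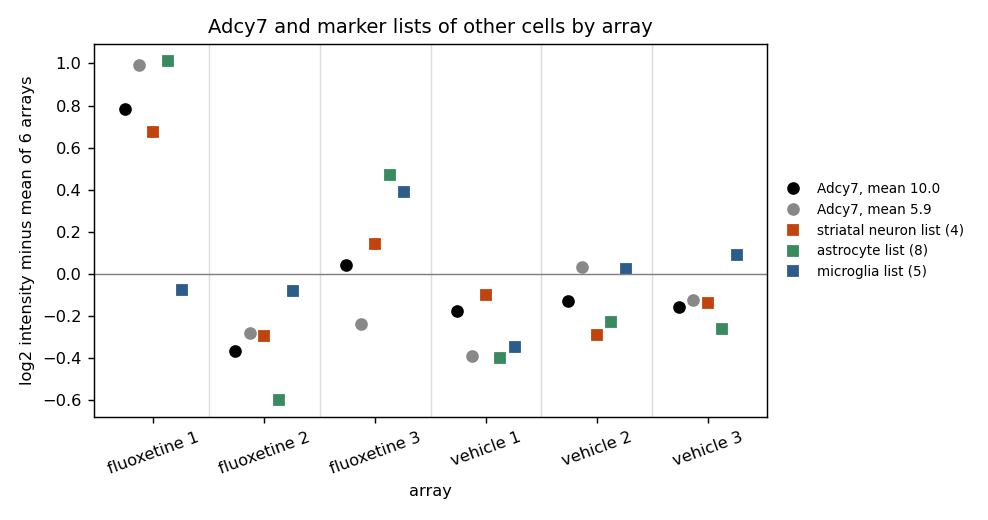
Log2 intensity minus the mean of the 6 arrays for the 2 tested Adcy7 probe sets (circles) and for the mean over the tested genes of 3 marker lists (squares, number of genes in brackets), by array. On fluoxetine 1 both Adcy7 probe sets and the striatal and astrocyte lists are highest, and the microglial list is not.

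Adcy5 and Adcy6, the cyclases inhibited by calcium, differed little. The brightest Adcy5 probe set measured 11.12, 11.19 and 11.37 with fluoxetine and 11.05, 11.37 and 11.21 with vehicle, with a difference of 0.01 ± 0.13 (log2, SE). Its 95% interval was −0.30 to 0.33, and the second tested probe set differed by −0.04 ± 0.14. Neither was raised on fluoxetine 1, where they lay 0.12 and 0.10 below the mean of the other arrays. The 2 further probe sets of Adcy5 lay below the filter at intensities of 5.58 to 9.54. Adcy6 measured 8.25, 7.94 and 8.04 with fluoxetine and 8.16, 8.06 and 8.34 with vehicle, and differed by −0.11 ± 0.14 (95% interval −0.43 to 0.21), or −0.20 without fluoxetine 1 and −0.03 without vehicle 3. The groups overlapped for every tested probe set of both genes.

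Adcy9, the most distant member, had 4 tested probe sets, none of them lower with fluoxetine. The brightest measured 11.21, 10.69 and 11.00 with fluoxetine and 10.76, 11.08 and 11.04 with vehicle. Its difference was 0.01 ± 0.17 (log2, SE, 95% interval −0.39 to 0.41), and those of the others were 0.07, 0.14 and 0.18, all with overlapping groups. All 4 were highest on fluoxetine 1, where 24.1% of all tested probe sets were highest, by 0.30 to 0.47 above the mean of the other arrays. On fluoxetine 2 they lay below that mean by 0.17 to 0.47. The near-zero difference is therefore an average over fluoxetine arrays that disagreed: it was −0.11 without fluoxetine 1 and 0.15 without fluoxetine 2. The probe sets of Adcy9 followed one another over the arrays, with correlations of 0.601 to 0.939.

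**Figure D3:**
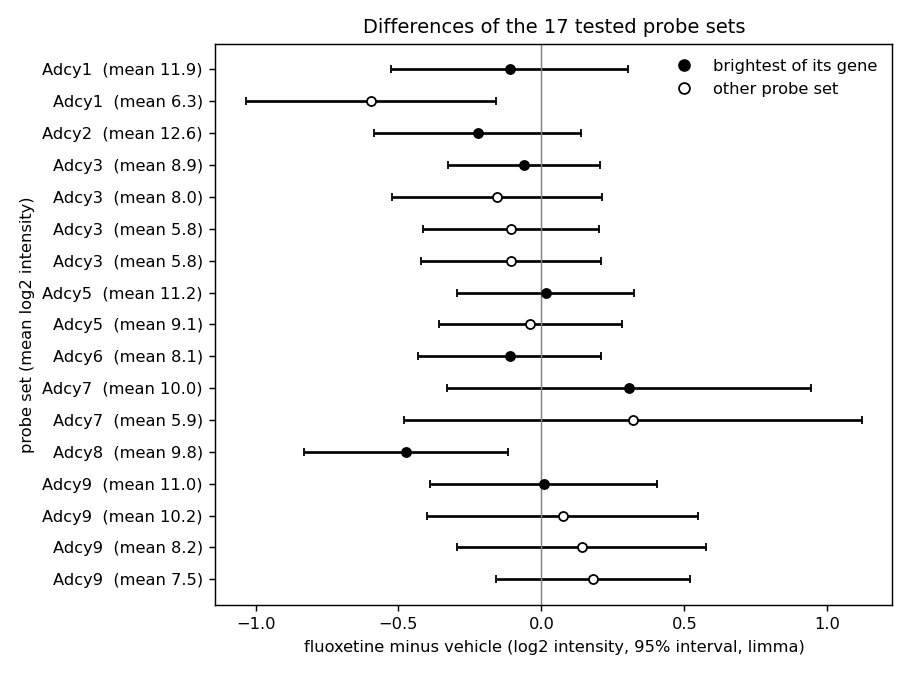
Difference between fluoxetine and vehicle in log2 intensity for the 17 tested probe sets, with limma's 95% intervals; filled circles mark the brightest probe set of each gene and the number beside each name is its mean log2 intensity. The intervals of Adcy8 and of the dimmer Adcy1 probe set lie below 0 before any adjustment, and those of Adcy7 are the widest.

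Array by array, fluoxetine 2 was the low array for the family and for several lists of cell markers. All 8 genes lay below the mean of the other arrays there, by a median of −0.31 in log2, while all tested probe sets together lay at −0.07. Of the 17 tested probe sets, 11 were lowest on fluoxetine 2, where 28.2% of all tested probe sets were lowest. The summed intensity of oligodendrocyte markers was 13238 there and 19976 to 21809 on the other arrays, and that of interneuron markers 19315 against 21804 to 26435. Averaged log2 levels were 7.43 against 7.90 to 8.26 for oligodendrocyte precursor markers and 9.98 against 10.18 to 11.59 for astrocyte markers. By summed intensity the precursor markers were 1377 on fluoxetine 2, close to the 1383 of vehicle 1. Other lists were highest on fluoxetine 2 in averaged log2 level. Excitatory neuron markers lay at 10.43 there against 10.07 to 10.39, and endothelial markers at 6.18 against 5.40 to 6.07. The part of these cells in the low adenylyl cyclase values was not tested. Fluoxetine 1 was high for Adcy7 and Adcy9 and low for Adcy8, and fluoxetine 3 lay above the mean of the others for 7 of the 8 genes. On the vehicle arrays 5, 6 and 5 of the 8 genes lay above that mean. The SD over the fluoxetine arrays was the larger one for 7 of the 8 genes, where that held for 60.3% of all tested probe sets. It was 0.27 against 0.04 for Adcy2, 0.58 against 0.02 for Adcy7 and 0.26 against 0.05 for Adcy8, close to equal for Adcy6 (0.16 against 0.14) and the smaller one for Adcy5 (0.13 against 0.16). That difference in spread was not tested.

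**Figure D4:**
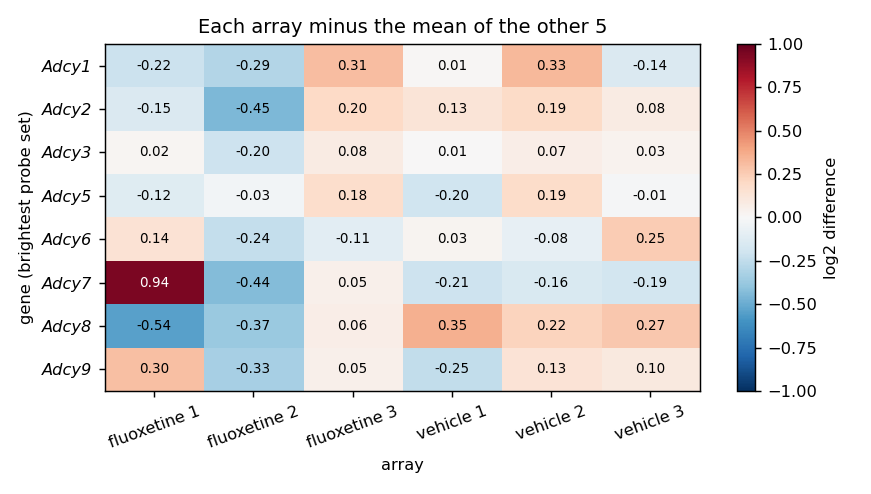
Log2 intensity of each array minus the mean of the other 5, for the brightest tested probe set of each gene (rows) on each array (columns), red for higher and blue for lower. Fluoxetine 2 is below 0 in every row, and Adcy7 and Adcy8 take opposite signs on fluoxetine 1 (0.94 and −0.54).

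Over the 6 arrays Adcy2 and Adcy3 rose and fell most alike (Pearson r = 0.923), followed by Adcy1 and Adcy2 (0.815) and Adcy2 and Adcy8 (0.790), while Adcy7 and Adcy8 ran opposite (−0.558). These correlations describe 6 points that share array-wide shifts. RefSeq promoter windows, the 250 bases before an annotated start, were matched for 6 of the 8 genes, in 9 windows. Those of the most alike pair are shown beside one of Adcy7, which followed neither (−0.009 with Adcy2 and 0.354 with Adcy3), to let their base composition and motifs be compared. The windows, on assembly GRCm38.p6, are chr13:68999542-68999791 on the minus strand for Adcy2, chr12:4133147-4133396 on the plus strand for Adcy3 (the first of its 2 windows) and chr8:88282742-88282991 on the plus strand for Adcy7 (the first of 3). Capitals mark the GC box GGGCGG or its reverse complement CCGCCC, and the short form TGACG (or CGTCA) of the cyclic AMP response element, the sequence bound by the cyclic AMP-responsive factor CREB.
Adcy2: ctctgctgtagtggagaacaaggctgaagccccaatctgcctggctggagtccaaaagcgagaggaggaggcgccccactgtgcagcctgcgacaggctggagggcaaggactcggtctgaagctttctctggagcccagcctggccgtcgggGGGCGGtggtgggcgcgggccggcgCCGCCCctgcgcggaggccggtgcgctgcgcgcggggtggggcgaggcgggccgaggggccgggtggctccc
Adcy3: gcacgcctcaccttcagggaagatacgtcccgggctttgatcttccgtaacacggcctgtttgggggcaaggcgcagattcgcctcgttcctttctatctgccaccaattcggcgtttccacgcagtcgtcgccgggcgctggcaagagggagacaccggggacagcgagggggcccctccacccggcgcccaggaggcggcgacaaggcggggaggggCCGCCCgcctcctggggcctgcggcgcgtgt
Adcy7: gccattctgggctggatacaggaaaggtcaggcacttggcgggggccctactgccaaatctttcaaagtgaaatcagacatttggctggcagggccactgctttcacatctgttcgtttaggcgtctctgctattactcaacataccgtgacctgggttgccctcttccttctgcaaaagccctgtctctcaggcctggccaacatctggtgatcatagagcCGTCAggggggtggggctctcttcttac

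The Adcy2 and Adcy3 windows shown are richer in G and C, at 73.2% and 68.8%, than that of Adcy7 at 54.0%, against a median of 52.4% over 32851 RefSeq windows of the same length. Searched on both strands, the GC box was found 2, 1 and 0 times in the Adcy2, Adcy3 and Adcy7 windows shown, and in 6 of the 9 adenylyl cyclase windows, against 32.7% of all windows. The Adcy3 window not shown had 56.0% G and C and 0 GC boxes. Those of Adcy7 not shown had 56.0% with 0 GC boxes and 56.4% with 1. The contrast between Adcy3 and Adcy7 therefore holds for the windows shown only. The short form TGACG was found in the Adcy7 window shown and in that of Adcy9, 2 of the 9, against 17.8% of all windows, and overlapped no GC box. The full element TGACGTCA, which contains the short form, was found in none of the 9 and in 1.55% of all windows, and the Egr site GCGTGGGCG in none and in 0.536%. These are matches of letters only.

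Among 19654 other tested probe sets with 1 symbol, those most like each isoform over the 6 arrays were, for Adcy8, Dicer1, the small RNA processing enzyme, and Gabrd, the delta subunit of GABA-A receptors (r = 0.993 and 0.987). Gabrd differed by −0.43 in log2 and Dicer1 by −0.28. For Adcy1 they were Gucy1a1, a subunit of the nitric oxide-activated guanylyl cyclase, and Mios (r = 0.999 and 0.996), for Adcy2 Flot1 and Sptb (0.993 each), and for Adcy3 Cplx2, a regulator of vesicle release, and Dnajc5 (0.996 and 0.993). For Adcy5 they were Zmynd19 and Dipk2a (0.992 and 0.991), for Adcy6 Smg8 and Rusc1 (0.991 and 0.982), for Adcy7 Zfp592 and Crtac1 (0.999 each) and for Adcy9 Rexo2 and Psmb6 (0.994 each). These values were picked as the highest of 19654 and describe 6 arrays only. Of the 19654, 13 probe sets reached 0.95 with Adcy5, 30 with Adcy8 and 227 with Adcy7.

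The rest of the cyclic AMP pathway was read from lists of 86 genes, of which 71 were analysed here and 60 were tested. None passed limma's test, 42 were lower (70.0%, against 66.3% of all tested probe sets) and 18 higher, and the median difference was −0.05 in log2 against −0.06 for all tested probe sets. At an unadjusted p under 0.05 there were 2, or 3.33% against 2.52%, and the groups did not overlap for 4, or 6.67% against 8.05%, so these counts lay near those of the whole array. The 2 were receptors: Crhr1, a receptor for corticotropin-releasing hormone that couples to stimulatory G proteins, and Grm2, a glutamate receptor that couples to inhibitory ones. Crhr1 measured 8.41, 9.03 and 8.95 with fluoxetine and 9.34, 9.39 and 9.34 with vehicle, a difference of −0.56 ± 0.18 (log2, SE). Like Adcy8, it was lowest on fluoxetine 1 with no overlap between groups. Grm2 differed by −0.44 ± 0.17, also without overlap. Of 5 tested receptors that couple to stimulatory G proteins 3 were lower, with Vipr1 at −0.13 and Drd1 at 0.12, and of 16 that couple to inhibitory G proteins 10 were, with Npy1r at −0.37 and Htr1a at −0.15.

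The G proteins between receptor and cyclase differed little. Gnas, the stimulatory alpha subunit, differed by −0.06 ± 0.13 (log2, SE) and Gnal, its olfactory and striatal relative, by −0.02 ± 0.23. Of 5 inhibitory alpha subunits 4 were lower (median −0.09), with Gnai3 at −0.16, Gnaz at −0.10 and Gnao1 at −0.09. The 4 beta subunits split evenly (median −0.04), with Gnb5 at −0.17, Gnb2 at −0.13 and Gnb1 at 0.08.

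Downstream of the cyclases, 9 of 12 tested phosphodiesterases, which break cyclic AMP down, were lower (median −0.05). Pde7b differed by −0.43 ± 0.21 (log2, SE), Pde10a by −0.34 ± 0.17 and Pde4d by −0.15 ± 0.13, all with overlapping groups. Of 9 subunits and inhibitors of protein kinase A, the main cyclic AMP effector, 7 were lower (median −0.05). Pkib, an inhibitor, differed by −0.44 ± 0.20, and the regulatory subunits Prkar2b and Prkar2a by −0.15, without overlap, and −0.13. Among the other effectors, the exchange factor gene Rapgef3 differed by −0.35 ± 0.15, the channel gene Hcn2 by −0.14, without overlap, and Hcn3 by 0.32. The anchors Akap12, Akap9 and Akap6 differed by 0.16, −0.25 and −0.19. The calmodulin genes were not analysed here.

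**Figure D5:**
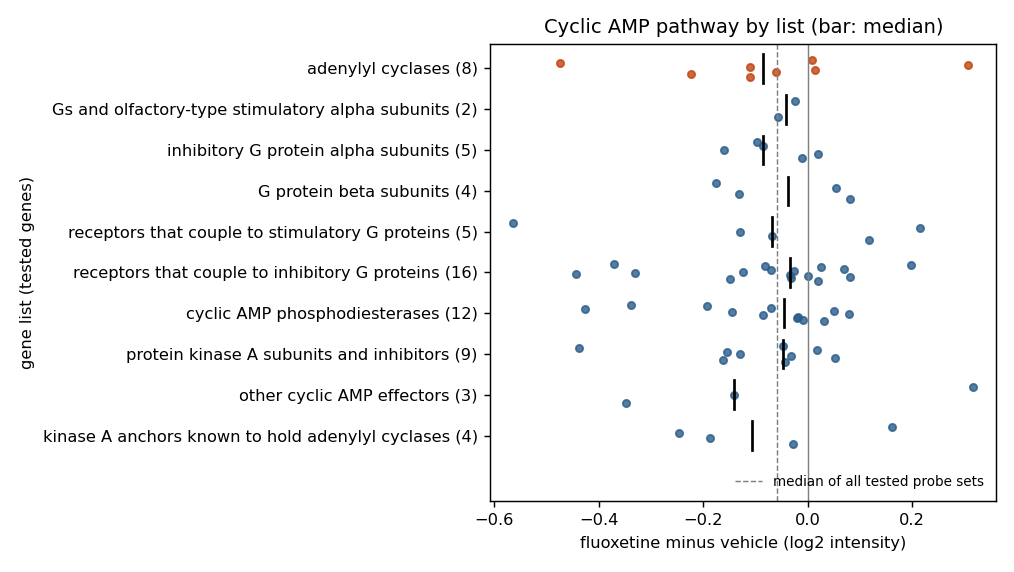
Difference between fluoxetine and vehicle in log2 intensity for the 8 adenylyl cyclase genes (red) and the tested genes of 9 pathway lists (blue, number of genes in brackets), each gene by its brightest tested probe set. Black bars are list medians, between −0.14 and −0.03 for the pathway lists, and the dashed line is the median of all tested probe sets at −0.06.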

How the data were processed

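RNA from TRAP was amplified in 2 cycles from 15 ng and hybridised to single-colour Affymetrix arrays, per the labels. The authors deposited linear intensity (1.74 to 99076) made with GCRMA, per the submitters' processing notes, with no version stated. GCRMA models background on probe sequence, equalises the arrays and squeezes low values. Genes were named from the platform annotation; 64 array controls were left out. Probe sets with a geometric mean of at least 50 over the 6 arrays were tested as log2 values with limma 3.58.1 in R 4.3.3 (lmFit, eBayes, two-sided, Benjamini-Hochberg over 22326 probe sets, threshold 0.05), after a check on simulated data. A gene stands for its brightest tested probe set; levels of different probe sets are not compared, since brightness depends on the probes. The members and lists were chosen with earlier results of these data known. Named pathway genes are the 3 per list with the smallest p, and genes alike the 2 with the highest correlation, passing over predicted genes. Penk, Vtn, Vip, Sox9 and Gfap were chosen after their values were seen. The main fit did not pair arrays by replicate number. The alternatives are other filters, an offset of 16, other scalings, a block, variance models, averaged probe sets and leaving out arrays.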

Additional observations from a re-analysis of the deposited data

How the results depend on the processing

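No adenylyl cyclase probe set, and no probe set of any gene, passed limma's adjusted threshold under any of the 16 other settings of the fit, where 318 to 2631 probe sets had an unadjusted p under 0.05. The differences of Adcy2, Adcy6 and Adcy8 kept their sign in all 18 alternatives each, but several of these could not change it. Other filters, the block and averaging over a single tested probe set leave each difference as it was. Settings such as the offset, other scalings and leaving out arrays could change it. With the replicate number as a block, Adcy8 differed by −0.47 and did not pass limma's test, and probe sets of all genes at an unadjusted p under 0.05 went from 563 to 350. Same-numbered arrays' deviations from their group means correlated at −0.25, −0.03 and −0.50, and 0 of 3 fluoxetine arrays correlated best with the vehicle array of their own number. Deviations from a mean of 3 arrays depend on one another, so these values cannot show whether same-numbered arrays were prepared together. Small differences changed sign: Adcy1 to 0.061 and Adcy9 to −0.056 without fluoxetine 1 and vehicle 2, Adcy3 to 0.00025 after quantile normalization and Adcy5 to −0.012 averaged over its probe sets, where Adcy1 was −0.35; the causes were not tested. Leaving out 1 array gave −0.27 to −0.0016 for Adcy1, −0.20 to −0.033 for Adcy6, −0.11 to 0.0092 for Adcy3, −0.064 to 0.095 for Adcy5, −0.0080 to 0.57 for Adcy7 and −0.11 to 0.15 for Adcy9. The count of lower probe sets was 10 of 17, 8 to 15 with an array left out and 6 of 11 without probe sets ending in _x_at or _s_at, which can match several genes. Signal limits the dim probe sets of Adcy1, Adcy3 and Adcy7, which lie near the filter.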
